A study of Mus musculus with 6 samples.

Results

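Narrow H3K4me3 domains are short stretches of the mouse genome, 600 bp or less, that stood above the input in the summed H3K4me3 reads of CD4 and CD8 T cells. They were chosen by their width and by H3K4me3 and input read numbers, on chromosomes 1 to 19 in bins of 200 bp. A bin counted when its H3K4me3 reads, scaled to library size, were at least 4 times the input, with the input set to at least 3 reads. Bins were joined over gaps of up to 400 bp, and a domain needed at least 20 reads. The rule gave 17327 domains, of which 5581 (32.2%) were 600 bp or less, 1786 were 800 bp and 9960 were 1 kb or more, called wide here.

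H3K4me3, trimethylation of lysine 4 of histone H3, is laid down by the SET1 and MLL methyltransferase complexes and is best known from nucleosomes beside active gene starts. Strong CpG-rich promoters usually carry it over several nucleosomes, while shorter or weaker stretches are known from weak promoters, from alternative starts and from some enhancers. H3K36me3 is placed by SETD2 travelling with elongating RNA polymerase II and marks transcribed gene bodies, so the level around a domain is a separate readout of its surroundings.

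The cells were mature thymic T cells of C57BL/6 mice, sorted by the labels into CD4+ and CD8+ cells, with no age, sex or treatment given in the sources used here. CD4 and CD8 are the coreceptors of helper and cytotoxic T cells. For each cell type there was 1 library of H3K4me3, 1 of H3K36me3 and 1 of input chromatin without antibody, all cut with micrococcal nuclease. The CD4 and CD8 groups therefore have 1 library per mark, and no comparison has a replicate check or a p-value. The intervals below cover counting error only, or the spread over regions of the same library. Since no molecular identifiers were used, repeated reads cannot be counted as separate molecules. In chromatin from bulk cells, fewer marked cells and less mark per cell cannot be told apart.

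On chromosomes 1 to 19 the H3K4me3 libraries held 10491937 reads in CD4 and 11878642 in CD8, the H3K36me3 libraries 6599587 and 6604331, and the inputs 9913123 and 9716101. The 2 H3K4me3 libraries stood apart from each other before any domain was drawn. The number of distinct H3K4me3 start positions, as a percent of reads, was 54.3% in CD4 and 31.3% in CD8, against 91.1% to 97.6% in the other 4 libraries. At least 10 kb from any bin run that passed, CD4 H3K4me3 was at 21.7% of the input level and CD8 H3K4me3 at 1.83%. The labelled cell types were not checked against marker genes, because no mm9 annotation was used here.

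Narrow domains were numerous but held few of the reads. They covered 2302 kb and took 3.50% of the CD4 H3K4me3 library and 3.002% of the CD8 library, while the wide domains took 67.6% and 88.5%. By width, 1420 of them were 200 bp, 2393 were 400 bp and 1768 were 600 bp. A narrow domain held between 0 and 1571 CD4 reads with a median of 35, and between 0 and 1719 CD8 reads with a median of 27. The pooled input of the same domains ranged from 0 to 87 reads with a median of 2. The median fold over input was 15.8 for narrow domains, 68.4 for those of 800 bp and 179 for wide ones. Width and reads were both used to choose the domains, so these values describe the choice.

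**Figure D1:**
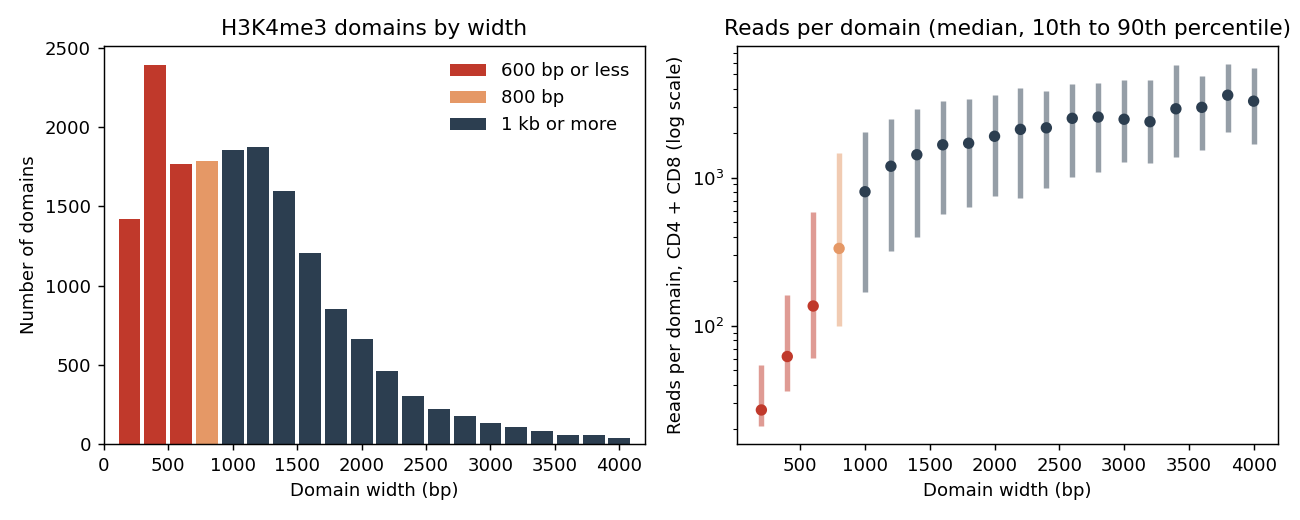
Left, the number of H3K4me3 domains (bars) at each width in bp up to 4000 bp, with domains of 600 bp or less in red, 800 bp in orange and 1 kb or more in dark blue. Right, reads per domain summed over CD4 and CD8 on a log axis, with points for medians and lines from the 10th to the 90th percentile. The width of 400 bp is the most frequent with 2393 domains, and the median reads climb from 27 at 200 bp to 136 at 600 bp, 333 at 800 bp and 804.5 at 1 kb.

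Reads climbed steeply with width across the limits of the rule. Domains of 200 bp had a median of 27 reads, those of 400 bp 62 and those of 600 bp 136, while domains of 800 bp, just outside the limit, had 333. At the lower limit of reads, 136 narrow domains had exactly 20 reads and 178 runs of bins had 19 and were left out. In all, 1501 runs of 600 bp or less fell below the limit, with 14 to 19 reads. With the pooled libraries and the input at its floor of 3 reads, a bin passed at 13.7 reads, so a domain of 200 bp can lie close to both cutoffs. Reads in domains of 200 bp had a 10th percentile of 21, a 90th of 54 and a maximum of 688.

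Read density dropped steeply at the edges of narrow domains. Among the 4276 that lay over 10 kb from a wide domain, read density inside averaged 162 CD4 and 153 CD8 reads per kb. In the first 200 bp outside it was 16.7 and 9.79 reads per kb, and from 400 to 600 bp outside it was 2.98 and 1.53. Between 2 and 5 kb away, density was 2.63 and 1.61 reads per kb. Input density was lower inside than around, at 3.66 against 4.45 reads per kb at 2 to 5 kb in CD4 and 2.88 against 4.19 in CD8. Bins low in input and flanks below the cutoff are favoured by the rule, so both steps are descriptions.

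A looser cutoff left most of them narrow. At 2 times the input in place of 4, the domain that held a given member was still 600 bp or less for 67.5% of members (95% exact binomial interval 66.2 to 68.7), 800 bp for 18.8% and 1 kb or more for 13.7%. At 8 times the input, 68.7% of the members still overlapped a domain. Of the 2 inputs, CD4 input treated as the precipitate against CD8 input gave 4 narrow domains on the same chromosomes, and the reverse gave 0.

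Read starts inside the narrow domains were closer together than those of the input at the same places. The median distance between 2 distinct starts of 1 library in 1 domain was 114 bp in CD4 H3K4me3 and 108 bp in CD8 H3K4me3, against 131 and 133 bp for the CD4 and CD8 inputs. Within domains of 600 bp the values were 130 and 119 bp against 174 and 166 bp. The share of CD4 pairs was 7.87% from 80 to under 100 bp, 7.42% from 100 to under 120 bp, 6.68% from 120 to under 140 bp and 5.87% from 140 to under 160 bp, so no separate peak was seen over these distances. Domain ends limit the distances that can occur, and the reads are those the rule used.

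Repeated reads were fewer in narrow domains than in wide ones, and followed read density. A median of 23.8% of the reads of a narrow domain repeated a start position of the same library, against 44.0% at 800 bp and 62.9% in wide domains. At matched density the classes lay close together. With 20 to 40 reads per 200 bp the median was 19.1% in narrow and 23.0% in wide domains, and at 320 or more it was 76.6% and 75.7%. In 592 narrow domains (10.6%) at least 50% of the reads were repeats, and in 43 at least 80%.

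With 1 read kept per position, 97.7% of the narrow domains (95% interval 97.3 to 98.1) still overlapped a domain of that run. In the run 61.4% of the members lay in a domain of 600 bp or less, 19.9% in one of 800 bp and 16.5% in one of 1 kb or more. Removing repeats lowers the pooled H3K4me3 total, so there a bin passed at 5.91 distinct starts, which makes the run more permissive. By a direct count, 91.6% of the members (90.9 to 92.3) held at least 20 distinct starts. The 126 members that were lost had a median of 22 reads.

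A few narrow domains were pile-ups on few positions. The domain chr3:5950401-5950600 held 250 CD4 and 438 CD8 reads on 28 distinct starts in each library, so 91.9% of its reads were repeats. At chr13:74728801-74729000, 41 CD4 reads lay on 8 starts and 141 CD8 reads on 9, and no domain was found there with 1 read per position. At chr8:122419601-122420000, 225 CD4 and 89 CD8 reads shared 20 and 12 starts. The other named domains of this kind had more starts. The domain chr17:45643801-45644200 had 495 CD4 and 1389 CD8 reads on 56 and 83 starts, and chr11:98590201-98590800 had 1278 and 958 reads on 119 and 81 starts.

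At the other end, some narrow domains reached the read density of wide ones. In 112 of them density reached 320 reads per 200 bp or more, with a median of 1187.5 reads on 292 distinct starts, and all 112 were found in each cell type alone. At 2 times the input, 44 of the 112 stayed at 600 bp or less, against 3766 of all 5581 narrow domains. The 5 with the most distinct starts were each 600 bp wide. The first, chr17:55851401-55852000, held 1000 CD4 and 1397 CD8 reads on 238 and 249 starts, with 2 and 1 input reads, 165.4 kb from the nearest wide domain. The domain chr11:80022601-80023200 held 482 and 1016 reads on 198 and 242 starts. The next, chr7:30645001-30645600, held 887 and 1130 reads on 240 and 189 starts. These 3 lay in domains of 1 kb at 2 times the input.

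The remaining pair kept sharper edges. The domain chr7:13483001-13483600 held 793 CD4 and 1669 CD8 reads on 189 and 233 starts and stayed 600 bp wide at 2 times the input. The domain chr17:33229401-33230000 held 739 and 1106 reads on 202 and 215 starts, and widened to 800 bp. Relative to wide domains, CD4 and CD8 reads differed by 1.08-fold to 1.30-fold in the 5.

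Narrow domains were spread over all chromosomes, with 1.59 per Mb on chromosome 14 at the low end and 3.80 per Mb on chromosome 11 at the high end. Wide domains had their lowest and highest densities on the same chromosomes, 2.81 and 7.23 per Mb. The number of narrow domains per wide domain ranged from 0.453 on chromosome 7 to 0.656 on chromosome 3. Chains in which neighbours lay within 5 kb of each other held few of them. Of the 5581, 5022 had no other narrow domain within 5 kb, 500 formed pairs, 51 formed groups of 3 and 8 formed 2 groups of 4. One group of 4, chr7:28110801-28117800, spanned 7.0 kb with 73 CD4 and 88 CD8 reads in its domains and was chosen after its values were seen.

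Most narrow domains stood apart from wide ones, but nearer to them than the genome at large. The median distance to the nearest wide domain was 31.2 kb, with quartiles at 11.2 and 79.4 kb and a maximum of 4231.4 kb. Within 10 kb lay 1305 of them, or 23.4% (22.3 to 24.5), against a background of 8.09% of all 200 bp bins with input reads outside wide domains. Within 100 kb the shares were 80.7% and 39.4%. Wide domains had 20.5% (19.7 to 21.3) within 10 kb of another wide domain and 81.5% within 100 kb, and domains of 800 bp had 24.1% and 82.8%.

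The narrow and wide classes differed most at short range. Within 2 kb of a wide domain lay 6.83% of narrow domains (6.18 to 7.52), 4.65% of domains of 800 bp (3.72 to 5.73) and 4.32% of wide domains (3.93 to 4.74). The smallest distance that the joining rule allows is 600 bp. At 50 kb the shares were 62.6% (61.4 to 63.9) for narrow and 63.2% (62.2 to 64.1) for wide domains.

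**Figure D2:**
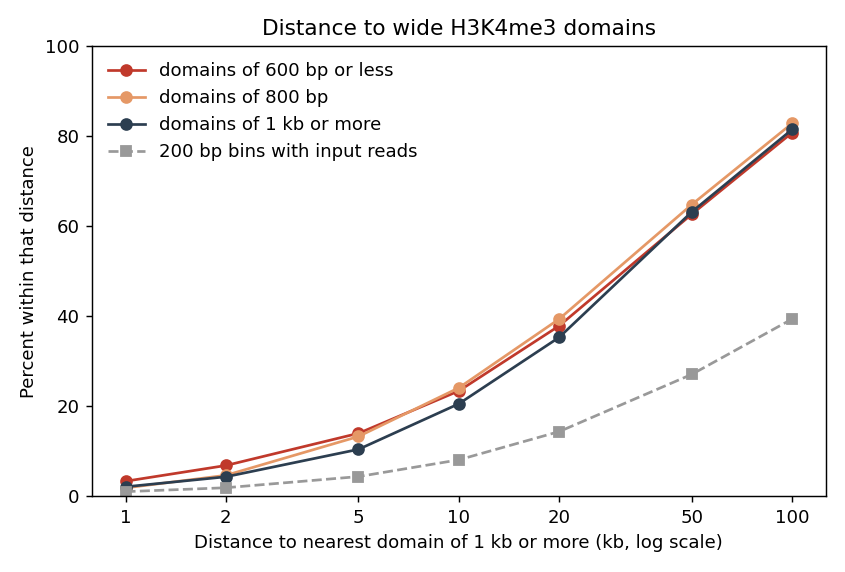
Percent of domains (lines with circles) that lie within a given distance, in kb on a log axis, of the nearest domain of 1 kb or more, for domains of 600 bp or less (red), 800 bp (orange) and 1 kb or more (dark blue), and for all 200 bp bins with input reads (grey squares, dashed). The 3 domain classes run close together, with 23.4%, 24.1% and 20.5% at 10 kb, and the bins lie below them at 8.09%.

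The 5 narrow domains farthest from any wide domain, among those with at least 20 distinct starts, were mostly modest. At chr5:15975601-15976000, 4231.4 kb from the nearest, 42 CD4 and 21 CD8 reads were counted, with 34 and 17 distinct starts and 1 and 4 input reads. On chromosome 3, chr3:149148201-149148400 had 16 and 12 reads, chr3:148653201-148653600 had 14 and 38, and chr3:148470001-148470400 had 43 and 24, between 1993.4 and 2263.2 kb away. These 3 fall in 1 stretch of under 1 Mb. Of them, chr3:148653201-148653600 lay in a domain of 1800 bp at 2 times the input and of 3000 bp with 1 read per position. The distances of these 3 to a wide domain thus hold at the main cutoff only. The fifth, chr3:71367801-71368400, was 1840.8 kb away and uneven between cell types, with 79 CD4 and 5 CD8 reads. H3K36me3 in the 10 kb around was below the input at each of the 5, from 0.285 to 0.706 times in CD4 and from 0.316 to 0.872 times in CD8.

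H3K36me3 around narrow domains was moderate. In the 10 kb centred on a narrow domain a median of 25 CD4 and 21 CD8 H3K36me3 reads were counted, with 81 reads of pooled input. Scaled to library size this was 0.915 times the input in CD4 (quartiles 0.623 and 1.45) and 0.790 times in CD8 (0.517 and 1.29). The median over all 10 kb windows of the same chromosomes was 0.388 in CD4 and 0.402 in CD8, and around wide domains it was 1.45 and 1.41. Domains of 800 bp lay between, at 1.07 and 0.948.

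Fewer narrow than wide domains lay in strongly marked surroundings. H3K36me3 reached 2 times the input around 828 narrow domains in CD4, or 14.8% (13.9 to 15.8), and around 736 in CD8, or 13.2% (12.3 to 14.1), against a background of 11.1% and 10.8% of all 10 kb windows. In both cell types it did so around 620, or 11.1% (10.3 to 12.0), against 9.86% of windows. The shares for wide domains were 33.4% in CD4 and 32.7% in CD8. So the share of narrow domains past 2 times the input was near that of all windows, while their median level was above that of all windows.

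H3K36me3 around narrow domains varied with the distance to a wide domain. Around narrow domains within 2 kb of a wide one, 36.5% (31.6 to 41.5) reached 2 times the input in CD4. It did so around 18.96% (16.3 to 21.8) at 10 to 20 kb, 6.83% (5.35 to 8.57) at 50 to 100 kb and 4.09% (2.99 to 5.46) beyond 100 kb. CD8 gave 36.7%, 15.7%, 5.25% and 4.19% at the same distances.

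All 10 kb windows, sorted by the distance of their centre to a wide domain, gave a different course. Within 2 kb the shares were close, at 32.4% of windows (30.9 to 33.9) and 36.5% of narrow domains in CD4. At 10 to 20 kb 36.6% of windows (35.8 to 37.4) reached 2 times the input in CD4 and at 20 to 50 kb 27.5% (26.9 to 27.99), above the 18.96% and 13.3% (11.5 to 15.2) of narrow domains. Beyond 100 kb the order turned, with 1.56% of windows (1.49 to 1.62) against 4.09% of narrow domains. CD8 showed both orders, with 35.2% of windows against 15.7% of narrow domains at 10 to 20 kb and 1.53% against 4.19% beyond 100 kb. The medians changed order sooner than the shares. At 10 to 20 kb the CD4 median was 0.977 around narrow domains and 1.17 in windows, at 20 to 50 kb 0.931 and 0.837, and at 50 to 100 kb 0.794 and 0.525. CD8 medians were 0.835 and 1.07, 0.771 and 0.743, and 0.686 and 0.469 at these distances. Beyond 100 kb they were 0.686 in CD4 and 0.626 in CD8 around narrow domains, and 0.303 and 0.330 in windows. From 20 to 100 kb narrow domains thus had the higher median and the lower share past 2 times the input. Windows were placed on a fixed grid and domains at their own centres, and neither set is a set of replicates.

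**Figure D3:**
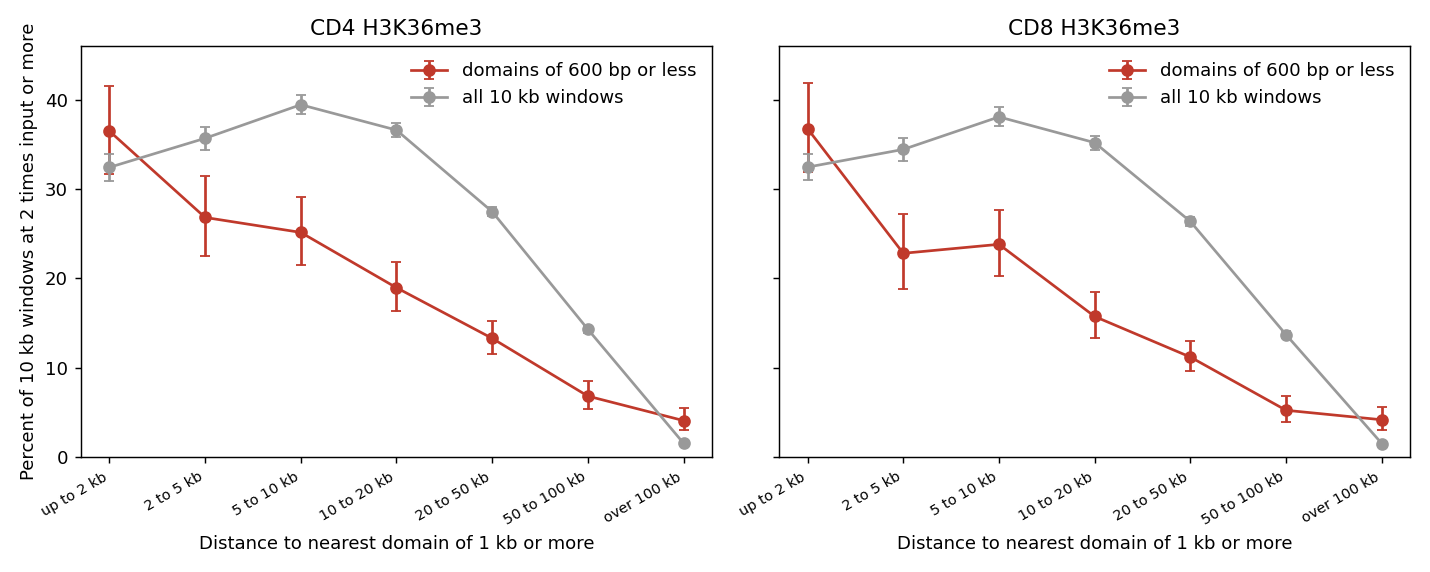
Percent of 10 kb stretches with H3K36me3 at 2 times the input or more, by distance to the nearest domain of 1 kb or more, for narrow H3K4me3 domains (red) and all 10 kb windows (grey), with CD4 on the left and CD8 on the right and bars for exact 95% binomial intervals. Narrow domains lie below the windows from 2 to 100 kb and above them beyond 100 kb in both cell types.

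Within the 10 kb, H3K36me3 was lowest at the narrow domain itself. Averaged over the 4276 members more than 10 kb from a wide domain, the CD4 level was 0.855 times the input at 0.5 kb from the centre, 1.10 at 1.5 kb, 1.27 at 5.5 kb and 1.47 at 19.5 kb. In CD8 these were 0.710, 0.983, 1.15 and 1.35. Narrow domains within 10 kb of a wide one had 1.27 at 0.5 kb and 2.16 at 5.5 kb in CD4, and 1.13 and 1.94 in CD8. Around wide domains the CD4 level went from 0.971 at 0.5 kb to 2.48 at 5.5 kb. A dip at the centre was thus present in both cell types and at both distances, over a lower surrounding level far from wide domains.

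**Figure D4:**
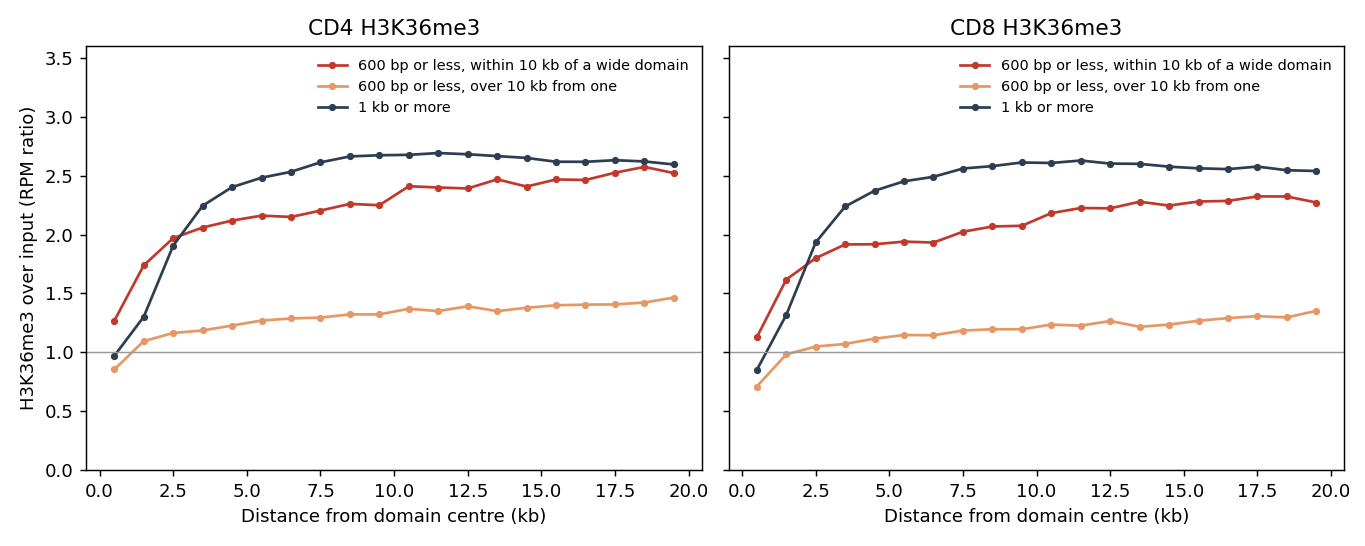
H3K36me3 over input (ratio of reads scaled to library size) in 1 kb steps against distance from the domain centre in kb, both sides summed, for CD4 (left) and CD8 (right). Narrow domains within 10 kb of a wide domain are red, narrow domains farther away orange and wide domains dark blue. Each line is lowest in the first 1 kb, at 1.27, 0.855 and 0.971 in CD4.

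The side that faced the nearest wide domain held little more H3K36me3 than the other. For narrow domains 10 to 20 kb from a wide one, the 5 kb on the facing side had 52.1% of the CD4 H3K36me3 reads of both sides, and 50.1% of the input reads. Of these 807 domains, 395 had more CD4 reads on the facing side, 381 had more on the far side and 31 had equal numbers. In CD8 the share was 52.9%, with 409, 363 and 35 domains. Beyond 100 kb, 515 domains had more CD4 reads on the facing side and 494 on the far side.

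The 5 narrow domains with the highest H3K36me3 around them had 9.80 to 12.4 times the input in each cell type. At chr15:79559201-79559600, 261 CD4 and 252 CD8 H3K36me3 reads were counted in 10 kb against 36 and 29 input reads, with 42 CD4 and 29 CD8 H3K4me3 reads in the domain. At chr11:106550001-106550200 the H3K36me3 counts were 367 and 305, and at chr6:136879201-136879400 they were 307 and 341. H3K4me3 was near the lower limit in both, with 12 and 14 reads and 10 and 12 reads. At chr1:195015401-195015800 the H3K36me3 counts were 272 and 298, with 31 and 23 H3K4me3 reads. The remaining one, chr14:119292201-119292400, had 407 and 323 H3K36me3 reads and more H3K4me3 in CD8, with 14 CD4 and 60 CD8 reads.

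Narrow domains in strongly H3K36me3-marked surroundings did not hold more H3K4me3 reads. The 620 with 2 times the input in both cell types had a median of 55.5 H3K4me3 reads, and the 4637 below it in both had 66. The first lay a median of 10.4 kb from a wide domain and the second 37.8 kb. By density, the CD4 share at 2 times the input went from 18.9% in narrow domains with under 20 reads per 200 bp to 9.44% at 160 to 320, and was 26.8% in the 112 at 320 or more. Over the same range wide domains went from 20.8% to 37.1% and 46.6%.

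CD4 and CD8 reads differed more in narrow domains than in wide ones. The log2 ratio of CD4 to CD8 reads, with 0.5 added to each count, was centred on the median of wide domains. Its median over narrow domains was 0.98, with quartiles at 0.05 and 1.95, against 0.19 for domains of 800 bp. The ratio was above 0 in 76.1% of narrow domains (74.96 to 77.2). With each library scaled to its total reads the median of narrow domains was 0.47, since that scaling lowers every log2 ratio by 0.51. Counted on distinct starts, centred in the same way, it was 0.51.

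Calls of a difference needed a 2-fold ratio or more, with an exact 99.9% interval, conditional on the sum of the counts, that left out 1. Of the narrow domains 2261 (40.5%, 39.2 to 41.8) were called higher in CD4, against a background of 21.8% of all domains, and 202 (3.62%, 3.14 to 4.14) higher in CD8, against 3.46%. Among wide domains the shares were 10.3% and 3.01%. CD4-higher domains made up 91.8% of the calls in narrow domains. Domains were chosen on summed reads, so one high in a single library could pass through that library, and such a domain had to differ. Of the 2261 calls for CD4, 1367 fell in domains found with the CD4 libraries alone but not with those of CD8, 706 in domains found in each cell type and 188 in domains found in neither. Of the 202 calls for CD8, 146 fell in domains found in CD8 alone, 48 in domains found in each and 8 in neither. The median log2 ratio was 0.69 in the 1958 found in each cell type, which held medians of 78 CD4 and 74 CD8 reads. The centre subtracted, the median of wide domains, was -0.69, so this value is a lean relative to wide domains only.

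The split of the calls depended on the scaling and on how repeats were counted. With total-read scaling 1490 narrow domains (26.7%) were called for CD4 and 490 (8.78%) for CD8, against backgrounds of 13.4% and 14.5% of all domains. The CD8 share of narrow domains was thus below that of all domains under this scaling. CD4 took 75.3% of these calls in narrow domains. Centred on the median of the narrow domains themselves, the counts were 968 and 962, and CD4 took 50.2%, an even split that this centre all but fixes. On distinct starts 1193 (21.4%) and 175 (3.14%) were called, against backgrounds of 11.6% and 2.99% of all domains, and CD4 took 87.2% of the calls. Of the 2261 called higher in CD4, 1158 were called both with total-read scaling and on distinct starts, as were 146 of the 202 called for CD8. Total-read scaling keeps every CD8 call by construction, so the 146 were set by distinct starts. No call turned to the other direction on distinct starts.

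The CD4 lean was smaller at high read density and was larger in narrow domains than in wider ones of like density. In narrow domains with 20 to 40 reads per 200 bp the median log2 ratio was 1.09, in domains of 800 bp at the same density 0.69 and in wide ones 0.50. At 80 to 160 reads it was 0.84, 0.33 and -0.01, and at 320 or more 0.13, -0.09 and -0.01. Distinct starts gave 0.60, 0.25 and 0.04 at 20 to 40 reads and 0.12, 0.04 and 0.06 at 320 or more. In each of the 6 density classes the median of narrow domains was the highest of the 3 width classes, on reads and on distinct starts.

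**Figure D5:**
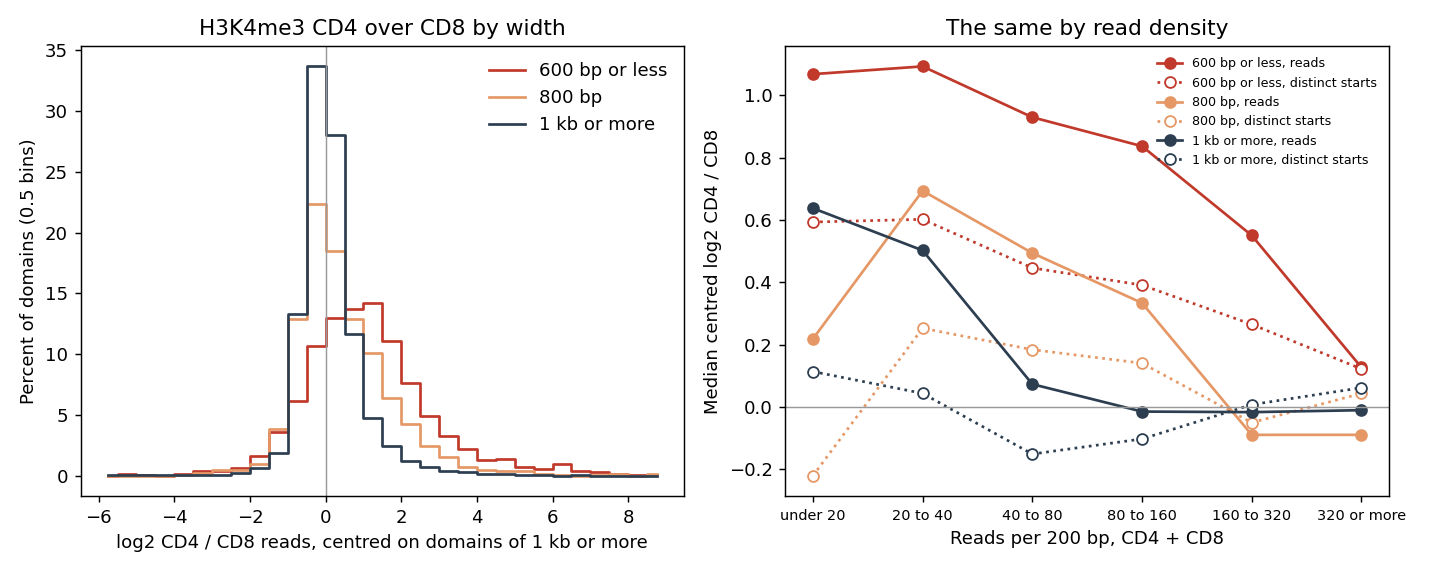
Left, the distribution of the log2 ratio of CD4 to CD8 H3K4me3 reads, centred on wide domains, as percent of domains in bins of 0.5, for domains of 600 bp or less (red), 800 bp (orange) and 1 kb or more (dark blue). Right, the median ratio by reads per 200 bp for the same classes, from reads (filled points, solid lines) and from distinct starts (open points, dotted lines). The narrow class is shifted to CD4, with a median of 1.09 at 20 to 40 reads and 0.13 at 320 or more.

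The libraries themselves differed in ways that move with this lean. The CD4 H3K4me3 library had the higher level away from domains and the lower share of repeats, and the 2 cannot be told apart from the cell type, since each cell type has 1 library. Reads at the background level would add on average 0.315 CD4 and 0.0300 CD8 reads to a narrow domain, beside observed means of 65.8 and 63.9. With that level subtracted and the counts rounded, 2245 narrow domains were called higher in CD4 and 207 higher in CD8. So small a subtraction leaves most counts as they were, so the calls could hardly change. The level was taken at least 10 kb from any bin run that passed. At 2 to 5 kb from narrow domains far from wide ones, density was 2.63 CD4 and 1.61 CD8 reads per kb, and that level was not subtracted. With the CD8 library thinned to the CD4 reads in wide domains, 2094 and 181 were called.

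The lean to CD4 was larger far from wide domains. The median log2 ratio was 0.83 for narrow domains within 2 kb of a wide one and 1.22 for those beyond 100 kb, and the share called higher in CD4 was 37.0% and 48.5%. On distinct starts the medians were 0.41 and 0.69. Domains called higher in CD4 lay a median of 37.8 kb from a wide domain, and those higher in CD8 25.3 kb. Calls by distance were not counted for wide domains, so whether the rise is particular to narrow domains was not tested.

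Most of these places had a domain in at least 1 of the cell types alone, but fewer of them in CD8 than in CD4. By the same rule with 1 H3K4me3 library and its own input, 1958 of the narrow domains (35.1%) overlapped a domain in each cell type, 1542 (27.6%) in CD4 alone, 709 (12.7%) in CD8 alone and 1372 (24.6%) in neither. In the same order the shares were 80.6%, 8.62%, 7.73% and 3.08% for domains of 800 bp. For wide domains they were 96.6%, 1.38%, 1.71% and 0.311%. The 1372 narrow domains found in neither were above the cutoff only with the libraries summed, with a median of 16 CD4 and 15 CD8 reads. Cutoffs at the input floor were 12.7 CD4 and 14.7 CD8 reads per bin. In the 1958, the CD4 domain was wider in 690, the CD8 domain in 219 and both were equal in 1049. Of the 5581, 15 fell in a CD4 domain of 1 kb or more, and 2 in such a CD8 domain. Counted without regard to the pooled domains, the CD4 libraries alone gave 4937 narrow domains and the CD8 libraries alone 4786.

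The 5 named narrow domains higher in CD4 were nearly empty in CD8. The domain chr19:26878601-26879200 had 247 CD4 reads on 124 starts and 1 CD8 read, a ratio of 399.6 relative to wide domains (95% interval 71.1 to 15844.5). At chr1:163125801-163126200, 147 CD4 reads lay on 80 starts beside 1 CD8 read, a ratio of 237.8 (42.0 to 9455). The other 3 had no CD8 read, so their fold is taken against a floor of 3 reads. The ratios above were taken against the 1 CD8 read counted, so they are not comparable with these floor values. At chr2:44779001-44779400, with 135 CD4 reads on 50 starts, CD4 was at least 72.8-fold higher. At chr12:120395401-120395800, with 130 reads on 62 starts, it was at least 70.1-fold higher. At chr6:98556401-98557000, with 91 reads on 65 starts and 420.2 kb from a wide domain, it was at least 49.1-fold higher. The lower 95% limits of the exact interval, which also carries the counting error of the CD4 reads, were smaller than these floor values, at 58.4, 56.2 and 39.1-fold in the same order.

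The pooled input had 4 or more reads at 4 of these domains and 2 at the one on chromosome 2. H3K36me3 in the 10 kb around them differed by at most 10 reads between the cell types, with 16 CD4 and 11 CD8 reads at the domain on chromosome 19, 12 and 19 at the one on chromosome 1, 35 and 25 at the one on chromosome 2, 37 and 34 at the one on chromosome 12 and 31 and 30 at the one on chromosome 6. All 5 were also called higher in CD4 on distinct starts and with total-read scaling, which the choice of the highest lower limits favours.

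The 5 named narrow domains higher in CD8 had smaller folds. At chr15:76020401-76020800, 66 CD8 reads on 48 starts stood beside 1 CD4 read, a ratio of 40.8 (7.07 to 1636). The domain chr11:87545201-87545800 had 98 CD8 and 2 CD4 reads, a ratio of 30.3 (8.16 to 254), and lay 0.8 kb from a wide domain. At chr14:70954201-70954600 the counts were 84 and 2, a ratio of 26.0 (6.97 to 218). The domain chr9:45660601-45661200 had 301 reads in CD8 and 17 in CD4, and was 10.9-fold higher in CD8 (6.72 to 19.04). At chr13:12365801-12366400, with 238 and 15 reads, CD8 was 9.81-fold higher (5.83 to 17.8). All 5 were also called higher in CD8 on distinct starts, which the choice of the highest lower limits favours. Total-read scaling keeps all 202 CD8 calls by construction, since it lowers every log2 ratio.

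H3K36me3 around these 5 did not point one way. The domain on chromosome 9 had 21 CD4 and 52 CD8 H3K36me3 reads in 10 kb and that on chromosome 13 had 46 and 75, so both were higher in CD8. The domain on chromosome 15 had 211 and 109 and that on chromosome 11 had 32 and 19, both higher in CD4, and that on chromosome 14 had 25 in each.

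Over all narrow domains the median H3K36me3 ratio did not order with the H3K4me3 calls. The median log2 ratio of CD4 to CD8 H3K36me3 reads in 10 kb, centred on wide domains, was 0.10 (95% interval over regions 0.08 to 0.13) around domains called higher in CD4, 0.06 (-0.04 to 0.15) around those called higher in CD8 and 0.20 (0.18 to 0.22) around those not called. Among domains with H3K36me3 at 2 times the input in either cell type the medians were -0.05 in 361 domains higher in CD4, 0.08 in 42 higher in CD8 and 0.19 in 541 not called. A 2-fold lean of H3K36me3 to CD4 was seen around 5.97% of domains called for CD4, 5.94% of those called for CD8 and 8.95% of the rest. A 2-fold lean to CD8 was seen around 2.21%, 2.97% and 1.51%, so it was most frequent around the domains called for CD8, though there it rests on 6 of 202 domains. With medians of 21 to 25 H3K36me3 reads per 10 kb in each library, small differences at single domains were not detectable at this depth.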

How the data were processed

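The deposited files give the start and end of 1 aligned read per line, all 33 bp wide, with no strand or score, in the mm9 mouse build, per the submitters' processing notes. Which aligner was used, and what was done with multiply matching reads, is not given in the sources used here. Reads on chromosomes 1 to 19 were counted by midpoint, and positions are printed 1-based. No mm9 genome or annotation was used, so no sequence or gene is given, and the planned check of sequence and gene starts was not run. Domains, wide domains (1 kb or more) and calls follow the rules in the text. The H3K36me3 level is reads per 10 kb over pooled input (at least 3 reads), both scaled to library size, and profile steps with 30 or more input reads were left out. Grid windows with under 3 input reads were left out.

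Regions named were the 5 with the most distinct starts, the 5 called in each direction whose fold had the highest lower 95% limit among those kept with 1 read per position, the 5 farthest from a wide domain with at least 20 distinct starts, the 5 with the highest H3K36me3 where input was under 3 times the median, and the 5 with the most repeats, chromosome 18 left out and regions within 10 kb taken once. The members and rules were chosen with earlier results of these data known. On simulated data all 450 planted domains of 200 to 600 bp were found as narrow. They were set on the bin grid over even input, with reads well above the cutoff, which is easier than the real case. The difference rule, run on all 5581 narrow domains, recovered 62 of 100 changed 2.5-fold and 90 of 100 changed 4-fold and called 0 of 5381 unchanged. Those simulated counts varied by counting error alone, without repeated reads, so the rates do not carry over to these libraries. Counting used NumPy 2.4.6 and pandas 2.3.3 in Python 3.11.15, intervals SciPy 1.17.1 and plots matplotlib 3.10.9.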

Additional observations from a re-analysis of the deposited data

Results flagged for a closer look

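Chromosome X was outside the comparisons above. The same rule gave 138 narrow H3K4me3 domains there, against 0 with either input in place of the precipitate, beside 304 domains of 1 kb or more. They held a median of 30 CD4 and 28 CD8 reads, with a median log2 ratio of 0.57 on the same centre. Of the 138, 45 were called higher in CD4 and 3 higher in CD8. Outside chromosome X, 21.8% of all domains were called for CD4 and 3.46% for CD8. Among the narrow domains there, the shares were 40.5% and 3.62%. Calls among the wide domains of chromosome X were not counted. Whether the split on chromosome X is particular to narrow domains was not tested.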

How the results depend on the processing

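No paired analysis was possible because each group has 1 library. Runs with 1 read per position at 8 times the input, counts of distinct starts in the same members, and runs without members of at least 50% repeats were chosen after seeing the data. Of 96 alternative values, 50 stayed within 1.5 times a count or inside the 95% interval of the main value and 46 did not. A reversal could be scored only for the H3K36me3 ratios around called domains, and none was seen there. The number of narrow domains went to 3479 with at least 50 reads and stayed within 1.5 times elsewhere. The share kept with 1 read per position was 91.6% counted as at least 20 distinct starts and 89.9% at 50 reads.

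The share within 10 kb of a wide domain was 25.4% with 1 read per position, 21.1% at 8 times and 25.3% at 2 times the input, 25.02% with gaps of 200 bp, 21.6% with gaps of 800 bp, 21.2% with an input floor of 6 reads, and 20.5% and 20.9% from the CD4 and CD8 libraries alone. By construction it was 14.0% within 5 kb, 62.6% within 50 kb, 9.25% for domains of 2 kb or more and 27.1% for 800 bp or more.

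H3K36me3 medians moved little, in CD4 and CD8, to 0.944 and 0.813 with 1 read per position, 0.956 and 0.826 at 8 times, 0.887 and 0.768 at 2 times the input, 0.953 and 0.826 with the input floor of 6, 0.974 and 0.839 with 1 read per position at 8 times, 0.875 and 0.743 in 5 kb, 0.966 and 0.844 in 20 kb, 0.944 and 0.824 without the central 2 kb, and 0.841 and 0.719 over 10 kb from a wide domain. With gaps of 200 bp the CD8 median was 0.807.

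Calls moved most. Higher in CD4 and in CD8 numbered 1036 and 119 of 4627 narrow domains with 1 read per position. Of the 5581 in the main run, 1490 and 490 were called with total-read scaling and 968 and 962 centred on narrow domains. Higher in CD4 numbered 1143 of 5173 with 1 read per position at 8 times and 1193 of 5581 on distinct starts. Higher in CD8 numbered 312 of 5739 at 8 times and 127 of 5193 at 2 times the input. With the input floor of 6 it was 310 of 5787, and at 3-fold 117 of 5581. Shares of all domains called are given above for total-read scaling and distinct starts, and were not counted for the other settings here. A stricter limit on fold or reads leaves fewer calls or domains by construction. Otherwise the cause was not tested. Domains of 200 bp rest on a median of 27 reads, which limits what they show singly.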
